A study of Homo sapiens with 6 samples.

Results

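LTB encodes lymphotoxin beta, a membrane ligand of the tumour necrosis factor family, and was followed here with 8 genes of the NF-κB pathway. These were TNF, NFKBIA, NFKBIE, TNFAIP3, BIRC3, RELB, NFKB1 and NFKB2. The genes were chosen by name with earlier results in HCC95 cells known, so their values under the TGFβ and LZTFL1 labels of that line are a description and carry no test. Every probe that the platform annotation assigns to them was read on all 6 arrays. This gave 11 probes for 8 of the 9 genes, of 47323 probes and 20046 named genes on the array. BIRC3 was not analysed here.

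The study profiled mRNA of HCC95 and H460, both lung cancer lines from the American Type Culture Collection, on Illumina HumanHT-12 v4 bead arrays. All cells grew in DMEM with fetal bovine serum and carried 1 of 2 vectors with a puromycin marker, pSIn-E2F-LZTFL1-ires-GFP-puro, which carries LZTFL1 with GFP from the same transcript, or the control pSin-E2F-GFP-puro. The groups were H460 with LZTFL1, H460 with GFP, HCC95 with LZTFL1 labelled as treated with TGFβ, HCC95 with GFP labelled as treated with TGFβ, untreated HCC95 with LZTFL1 and untreated HCC95 with GFP. Each group had 1 array, no label speaks of repeat cultures, and the labels used here give neither the dose nor the duration of TGFβ. The number of arrays therefore limits the precision of every value below.

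NF-κB transcription factors are dimers of REL proteins that are held in the cytoplasm by IκB proteins. Ligands such as TNF activate IκB kinase, IκB is degraded and the canonical dimers enter the nucleus, while the lymphotoxin beta receptor can also start the non-canonical route, in which the NFKB2 product is processed and pairs with RELB. Several genes switched on by NF-κB encode parts or inhibitors of the same pathway, among them NFKBIA, NFKBIE, TNFAIP3, BIRC3, RELB, NFKB1 and NFKB2, so their transcripts are commonly read as feedback genes.

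Promoter windows of 250 bases before the annotated start are shown for 4 genes: the ligand genes LTB and TNF, and the inhibitor genes NFKBIA and TNFAIP3. They are RefSeq sequences of GRCh38.p14, written 5′ to 3′ on the strand of the gene. Capitals mark matches to the κB consensus of 10 bases, searched on both strands.
LTB (chr6:31582426-31582675, minus strand): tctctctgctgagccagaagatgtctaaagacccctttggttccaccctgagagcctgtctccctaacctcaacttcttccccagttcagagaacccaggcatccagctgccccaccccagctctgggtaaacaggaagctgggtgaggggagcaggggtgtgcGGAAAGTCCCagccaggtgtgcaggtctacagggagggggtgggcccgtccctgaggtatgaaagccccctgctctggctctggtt
TNF (chr6:31575315-31575564, plus strand): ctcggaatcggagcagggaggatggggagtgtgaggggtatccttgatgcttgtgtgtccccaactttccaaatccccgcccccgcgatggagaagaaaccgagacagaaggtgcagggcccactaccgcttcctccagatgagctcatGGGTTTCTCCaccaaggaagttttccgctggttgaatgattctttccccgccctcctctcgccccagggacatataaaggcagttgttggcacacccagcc
NFKBIA (chr14:35404750-35404999, minus strand): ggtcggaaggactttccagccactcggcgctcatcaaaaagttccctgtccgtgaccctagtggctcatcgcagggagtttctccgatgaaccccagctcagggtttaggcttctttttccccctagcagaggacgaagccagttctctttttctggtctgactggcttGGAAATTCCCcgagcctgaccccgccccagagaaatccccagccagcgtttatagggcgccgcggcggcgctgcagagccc
TNFAIP3 (chr6:137867009-137867258, plus strand): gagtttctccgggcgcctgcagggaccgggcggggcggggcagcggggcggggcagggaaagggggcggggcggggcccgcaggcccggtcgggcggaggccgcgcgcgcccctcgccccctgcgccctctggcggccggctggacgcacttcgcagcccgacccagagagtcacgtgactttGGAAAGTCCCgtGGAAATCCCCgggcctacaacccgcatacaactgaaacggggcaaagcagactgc
The match lay at −86 to −77 relative to the start in LTB, at −101 to −92 in TNF and at −81 to −72 in NFKBIA. TNFAIP3 held 2 separate matches, at −67 to −58 and −55 to −46. All genes but NFKBIE and RELB had a window, 7 of 9, and all 7 had a match in at least 1 of their windows. A match was present in 28.9% of all 35116 windows and in at least 1 window of 32.5% of all 27305 genes. These matches describe the sequence and show no binding.

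The genes are spread over 6 chromosomes, with LTB and TNF side by side. LTB lies at chr6:31580558-31582425 in the major histocompatibility complex, and 2221 bases separate it from TNF at chr6:31575565-31578336. NFKBIE (chr6:44258166-44265551) and TNFAIP3 (chr6:137866349-137883312) lie elsewhere on chromosome 6. NFKBIA (chr14:35401513-35404749), NFKB1 (chr4:102501359-102617302), NFKB2 (chr10:102394110-102402529), RELB (chr19:45001464-45038192) and BIRC3 (chr11:102317484-102339403) complete the set.

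The labels were checked first. The LZTFL1 probe read 6.39 log2 units in H460 with LZTFL1 and 6.36 in H460 with GFP. In untreated HCC95 it read 5.07 with LZTFL1, where it was not detected, and 5.75 with GFP, where it was. This probe therefore did not show the vector's LZTFL1, and its position relative to the insert was not analysed here. PMEPA1, a TGF-β target that limits the pathway, was lower on the TGFβ-labelled arrays, with log2 differences of −3.32 with LZTFL1 and −2.22 with GFP, and so was the target SMAD7, at −0.81 and −0.60. The arrays are therefore named by their labels throughout. The epithelial markers KRT8, KRT18, KRT19, EPCAM and CDH1 were detected on 3 of 5 on both H460 arrays (not EPCAM or CDH1) and 5 of 5 on each HCC95 array. Of 8 B and T cell markers with a probe, at most 1 (CD79B) was detected on any array, and their summed signal lay between 818 and 958. Between 14136 and 16423 probes per array had a detection p under 0.01, and the median signal lay between 104.5 and 125.2. In such bulk RNA, fewer cells of a type and less RNA per cell cannot be told apart.

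Lymphotoxin beta had the largest differences among the members in both TGFβ pairs and between the vectors in untreated HCC95. Its values are given as the deposited signal and as the log2 intensity after background correction and quantile normalization. Probe ILMN_2376205 had a signal of 89.9 in H460 with LZTFL1 and 89.8 in H460 with GFP, not detected on either array. In HCC95 with LZTFL1 it read 813 on the TGFβ-labelled array and 147 on the untreated array. In HCC95 with GFP it read 1036 on the TGFβ-labelled array and 454 on the untreated array. The TGFβ-labelled arrays were thus the brightest and both H460 arrays lay in the background.

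The normalized log2 intensities kept this order. They were 9.54 with LZTFL1 and 10.10 with GFP on the TGFβ-labelled arrays, and 5.50 with LZTFL1 and 8.16 with GFP on the untreated arrays. The untreated array with LZTFL1 was barely above background, with a detection p of 0.0026 and a lowest detected value of 5.33 on that array. The smallest step in the order, 0.56 between the TGFβ-labelled arrays, compares with an SD of 0.27 between probes of the same gene in that pair.

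As differences, LTB was 4.03 log2 units higher with the TGFβ label in cells with LZTFL1 (16.4-fold) and 1.94 higher in cells with GFP (3.85-fold). No other feature had a larger positive difference in the LZTFL1 pair, among 13769 measured, and 4 of 13386 did in the GFP pair. Between the vectors, LTB was 6.30-fold lower with LZTFL1 than with GFP in untreated HCC95, a difference of −2.66, where 2 of 14342 features lay further down. On the TGFβ-labelled arrays the vector difference was −0.56, with 715 of 12443 features further down. These pairs share arrays: the untreated LZTFL1 array enters both the largest TGFβ difference and the largest vector difference. The TGFβ difference with LZTFL1 exceeded that with GFP by 2.09, a value with no residual spread to test it against. Without background correction the excess was 0.878, and with an offset of 50 it was 1.47. The TGFβ difference with LZTFL1 was then 2.503 without background correction and 3.29 with the offset, and the vector difference in untreated HCC95 was −1.38 without background correction and −2.01 with the offset.

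The other LTB probe, ILMN_2376204, is annotated to the same transcript and gave the same direction for the TGFβ label from a weaker signal. Its signal was 198 with LZTFL1 and 230 with GFP on the TGFβ-labelled arrays, detected on both. On the untreated arrays it was 99.1 with LZTFL1 and 142 with GFP, and not detected on either, the second narrowly so at a detection p of 0.0104. In H460 it was 81.8 with LZTFL1 and 92.5 with GFP, also not detected. Both probes therefore ranked the TGFβ-labelled arrays above the untreated ones in HCC95.

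Because the untreated arrays were below detection, the TGFβ differences of ILMN_2376204 are bounds. They were at least 1.44 log2 units (2.71-fold) with LZTFL1 and at least 1.99 (3.98-fold) with GFP. Taken as measured they were 2.36 and 2.04. The vector difference on the TGFβ-labelled arrays was −0.60, against −0.56 for ILMN_2376205. The excess of the TGFβ difference with LZTFL1 over that with GFP would rest on undetected values at this probe and is not given. Nor could the vector difference in untreated HCC95 be measured at this probe, since it was not detected on either array. The 2.09 and the −2.66 of ILMN_2376205 therefore rest on ILMN_2376205 alone.

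The authors' processed intensities gave the same order of the HCC95 arrays for both LTB probes. ILMN_2376205 had 722 with LZTFL1 and 1077 with GFP on the TGFβ-labelled arrays, and 29.1 with LZTFL1 and 268 with GFP on the untreated arrays. It had 6.57 with LZTFL1 and 6.29 with GFP in H460. The processed columns shared a median of 13.1 and a minimum of 3.33 and ranked the probes of each array as its signals did. The same excess computed from these values was 2.09 for ILMN_2376205.

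**Figure D1:**
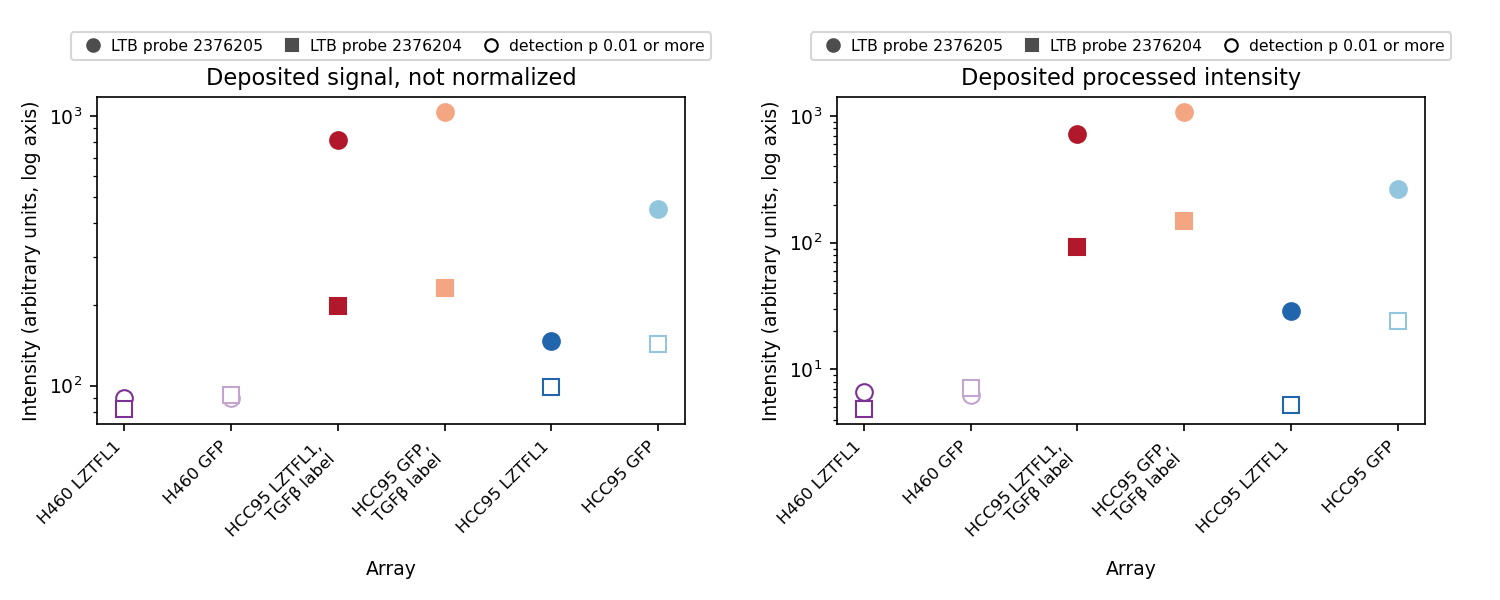
Intensity of the 2 LTB probes on each of the 6 arrays, as deposited signal (left) and as the authors' processed intensity (right), both on log axes in arbitrary units; circles are ILMN_2376205, squares ILMN_2376204, and open symbols have a detection p of 0.01 or more. Each point is 1 array. The TGFβ-labelled HCC95 arrays have the highest points of both probes, 813 and 1036 in signal for ILMN_2376205, and all H460 points are open.

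TNF, the founding ligand of the family and the genomic neighbour of LTB, was not detected on any of the 6 arrays. Its signal was 88.0 with LZTFL1 and 95.9 with GFP in H460. In HCC95 it was 108 with LZTFL1 and 94.9 with GFP on the TGFβ-labelled arrays, and 102 with LZTFL1 and 96.8 with GFP on the untreated arrays. The detection p lay between 0.471 and 0.939, so no difference of TNF was measurable at this signal.

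Among the inhibitors, NFKBIA, which encodes IκBα and ends the canonical signal, was detected on every array and was higher with the TGFβ label under both vectors. Its log2 intensity was 12.52 with LZTFL1 and 12.40 with GFP on the TGFβ-labelled arrays, and 11.63 with LZTFL1 and 11.65 with GFP on the untreated arrays. In H460 it was 11.38 with LZTFL1 and 11.47 with GFP. The TGFβ differences were 0.89 with LZTFL1 and 0.75 with GFP, and 218 of 13769 and 259 of 13386 features lay above them. The vector differences were 0.13 on the TGFβ-labelled arrays, −0.01 on the untreated HCC95 arrays and −0.09 in H460. NFKBIA thus separated the HCC95 arrays by TGFβ label and not by vector.

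NFKBIE, which encodes IκBε, showed the opposite arrangement. Its log2 intensity was 6.33 with LZTFL1 and 5.86 with GFP on the TGFβ-labelled arrays, and 6.41 with LZTFL1 and 5.95 with GFP on the untreated arrays. Both H460 arrays were below detection, at signals of 98.2 with LZTFL1 and 104.5 with GFP. The TGFβ differences were −0.08 and −0.09, smaller than the SD between probes of the same gene, which was 0.279 in the LZTFL1 pair and 0.245 in the GFP pair. The vector differences were 0.47 with the TGFβ label and 0.46 without it. NFKBIE was the one measured member with a higher value in LZTFL1 cells by more than that SD, 0.27 and 0.263 in these pairs. Without background correction both vector differences were 0.19. The TGFβ-labelled array with GFP, at 5.86, lay close to its lowest detected value of 5.70.

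TNFAIP3 encodes A20, a ubiquitin-editing enzyme that shuts off signalling to IκB kinase. Its log2 intensity was 8.63 with LZTFL1 and 8.76 with GFP in H460. In HCC95 it was 6.34 with LZTFL1 and 6.95 with GFP on the TGFβ-labelled arrays, and 5.69 with LZTFL1 and 6.46 with GFP on the untreated arrays. The H460 arrays stood above all HCC95 arrays. The TGFβ differences were 0.64 with LZTFL1 and 0.48 with GFP, and the vector differences were −0.61 with the TGFβ label and −0.77 without it. In H460 the vector difference was −0.13.

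The TGFβ difference of TNFAIP3 in cells with GFP appears only after normalization. Before it, the signal was 193 on the TGFβ-labelled array and 208 on the untreated array, whose median signals were 104.5 and 124.8. RELB was alike in this, with 165 on the TGFβ-labelled array and 178 on the untreated array. With each array scaled to its median in place of quantile normalization, the differences in this pair were 0.16 for TNFAIP3 and 0.19 for RELB, both within the probe SD of 0.245, against 0.50 for NFKBIA and 1.54 for LTB. NFKB2 at ILMN_2390859 turned to −0.07 under that scaling, against 0.26. NFKB1, at −0.46, NFKBIE, at −0.34, and NFKB2 at ILMN_1799062, at −0.39, then lay below 0 by more than that SD. The median signal of the arrays was thus lower with the TGFβ label, and its part in the small differences was not tested.

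Of the subunits, RELB, the partner of the processed NFKB2 product, followed the arrangement of TNFAIP3 within HCC95. Its log2 intensity was 6.05 with LZTFL1 and 6.53 with GFP on the TGFβ-labelled arrays, and 5.46 with LZTFL1 and 6.06 with GFP on the untreated arrays. RELB was not detected in H460. The TGFβ differences were 0.58 with LZTFL1 and 0.47 with GFP, and the vector differences were −0.49 with the TGFβ label and −0.60 without it.

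NFKB1 encodes p105, the precursor of p50. Its log2 intensity was 10.55 with LZTFL1 and 10.40 with GFP in H460. In HCC95 it was 8.57 with LZTFL1 and 8.996 with GFP on the TGFβ-labelled arrays, and 9.05 with LZTFL1 and 9.09 with GFP on the untreated arrays. The TGFβ differences were −0.48 with LZTFL1 and −0.10 with GFP. The TGFβ-labelled array with LZTFL1 was the lowest, and the other HCC95 arrays lay within 0.10 of each other.

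NFKB2 encodes p100, the precursor of p52, and its 3 probes are each annotated to another transcript. ILMN_2247868 was not detected on any array. ILMN_1799062 read 6.39 with LZTFL1 and 6.72 with GFP on the TGFβ-labelled arrays, and 6.14 with LZTFL1 and 6.77 with GFP on the untreated arrays. ILMN_2390859 read 6.46 with LZTFL1 and 6.81 with GFP on the TGFβ-labelled arrays, and 5.35 with LZTFL1 and 6.55 with GFP on the untreated arrays. Within HCC95, both detected probes were lowest on the untreated array with LZTFL1, as LTB was.

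The NFKB2 probes differed in size. The TGFβ difference with LZTFL1 was 1.11 at ILMN_2390859 and 0.25 at ILMN_1799062. In untreated HCC95 the vector difference was −1.20 at ILMN_2390859 and −0.63 at ILMN_1799062. The untreated LZTFL1 value of ILMN_2390859 had a detection p of 0.00909, just inside the limit. In H460 ILMN_2390859 read 6.35 with LZTFL1 and 6.32 with GFP, and ILMN_1799062 read 6.07 with LZTFL1 and 6.16 with GFP.

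**Figure D2:**
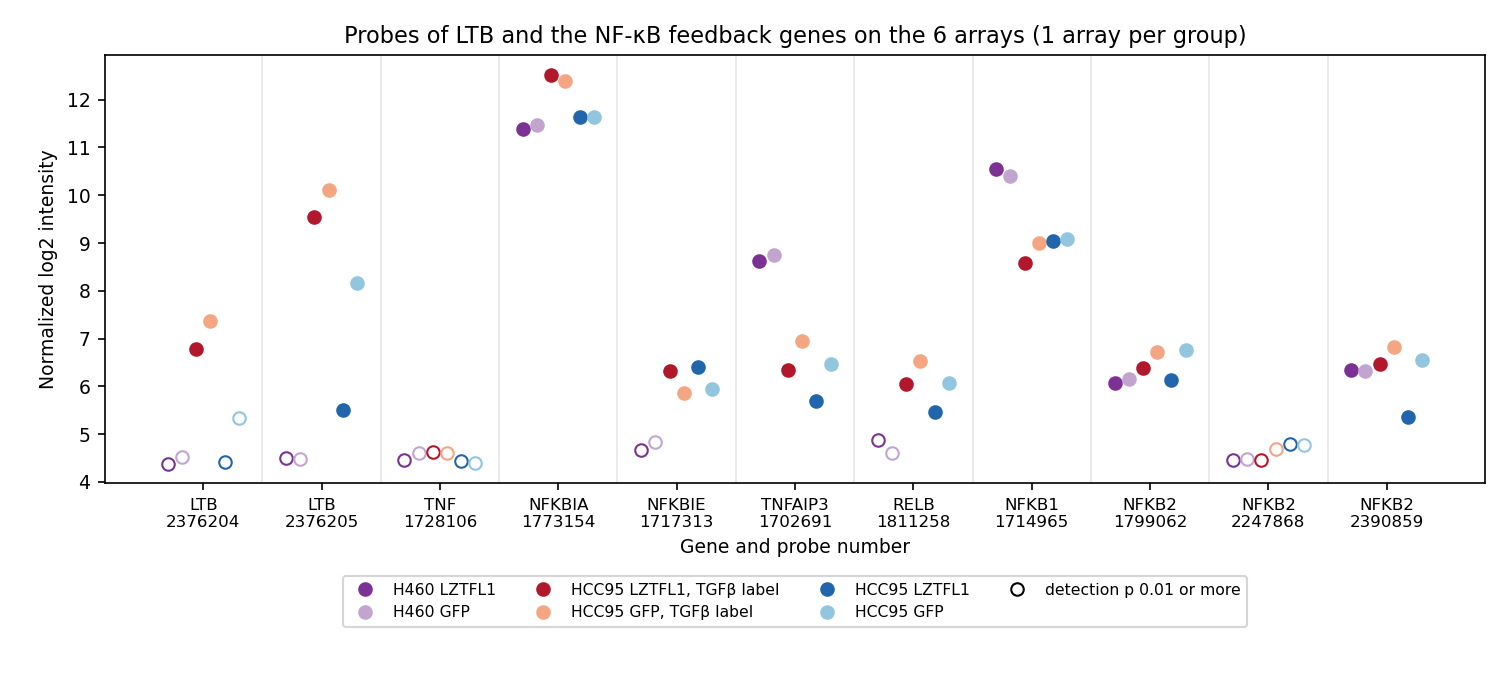
Normalized log2 intensity of every annotated probe of LTB, TNF, NFKBIA, NFKBIE, TNFAIP3, RELB, NFKB1 and NFKB2 on the 6 arrays, 1 point per array; open circles have a detection p of 0.01 or more, and levels of different probes are not comparable. NFKBIA is at 12.52 and 12.40 on the TGFβ-labelled arrays and near 11.6 on the untreated HCC95 arrays; TNFAIP3 and NFKB1 are highest on the H460 arrays.

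Taking 1 probe per gene, the brightest, 7 of the 9 genes could be measured in each HCC95 pair. With the TGFβ label, 1 of 7 members, LTB, was past 2-fold in either direction under each vector, and it was higher. Over all features 1.51% were past 2-fold in the LZTFL1 pair and 0.889% in the GFP pair. The median difference of the members was 0.58 with LZTFL1 and 0.47 with GFP, against 0 over all features in both pairs. Between the vectors, 0 members were past 2-fold on the TGFβ-labelled arrays, beside 1.26% of all features. In untreated HCC95 1 member was, LTB, which was lower with LZTFL1, beside 1.02%. The member medians were −0.42 with the TGFβ label and −0.60 without it. Since the members were chosen with these contrasts known, nothing is read from these shares.

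In the additive limma fits over the 4 HCC95 arrays, the TGFβ estimate was 2.99 for LTB, 0.82 for NFKBIA, 0.56 for TNFAIP3, 0.53 for RELB, 0.10 for NFKB2, −0.08 for NFKBIE and −0.29 for NFKB1. The vector estimate was −1.61 for LTB, and −1.185 with the probes of each gene averaged. For the other members it was −0.69 for TNFAIP3, −0.54 for RELB, −0.48 for NFKB2, −0.23 for NFKB1, 0.06 for NFKBIA and 0.47 for NFKBIE. These estimates are the means of the pair differences and are given with no test, since the members were chosen on these contrasts. Each of these fits has 1 residual degree of freedom and assumes that vector and TGFβ label add up, from which LTB departed by the 2.09 given above.

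In H460 the LZTFL1 vector moved none of the measured members past 2-fold, beside 0.155% of all features in either direction. The 4 members detected there had differences of 0.15 for NFKB1, −0.09 for NFKBIA, −0.13 for TNFAIP3 and −0.09 for NFKB2. All 4 were within the SD of 0.209 between probes of the same gene. With median scaling NFKB1 was at 0.32, past that SD, and the last 3 turned to 0.04, 0.04 and 0.07.

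**Figure D3:**
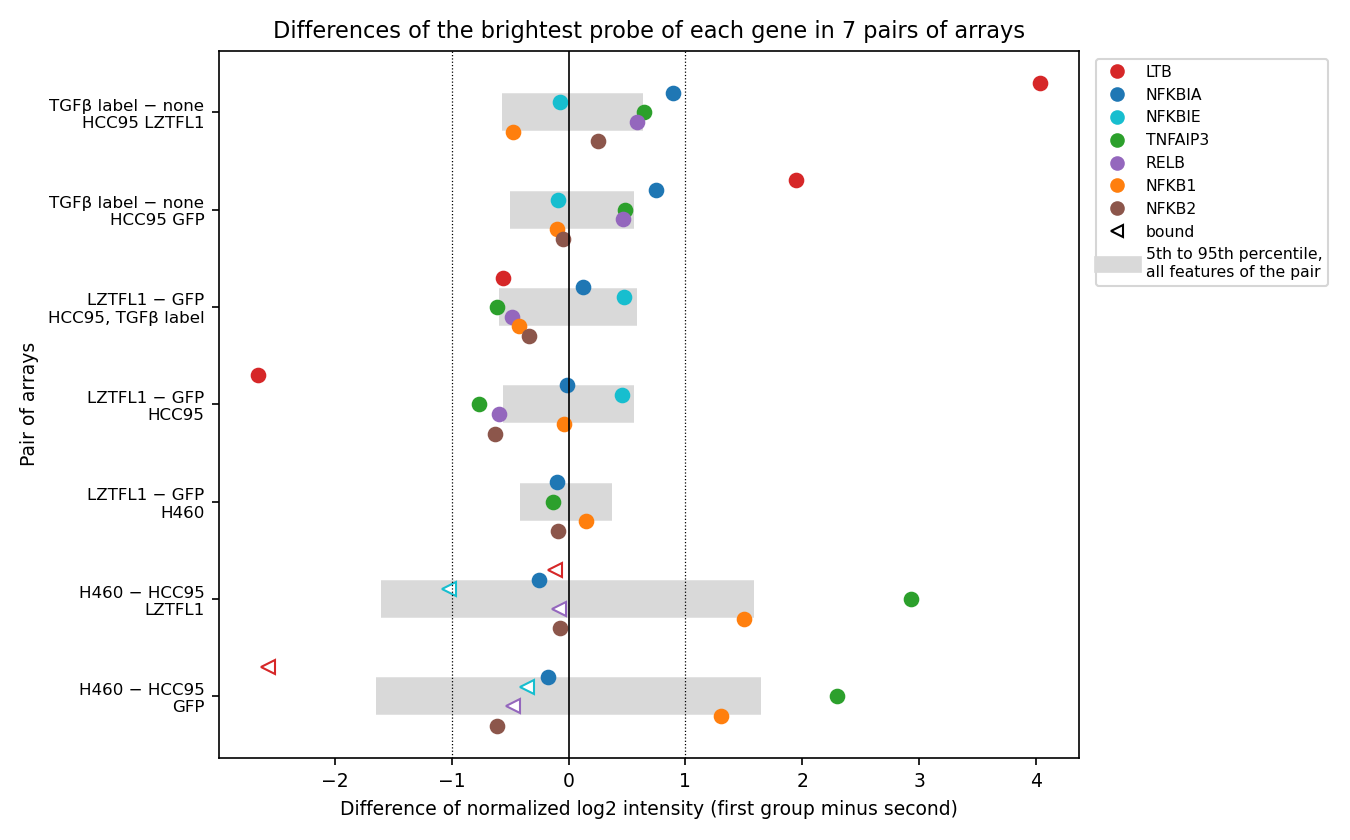
Difference in normalized log2 intensity of the brightest probe of each member in 7 pairs of arrays, first-named group minus second; grey bars span the 5th to 95th percentile of all features of the pair, dotted lines mark 2-fold, and open triangles are bounds where an array was below detection. LTB lies at 4.03 and 1.94 in the TGFβ pairs and at −2.66 between the vectors in untreated HCC95, outside the grey bars; in H460 the 4 measured members lie inside the bar.

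Most members were called between the lines, as most genes were. With the vector as a term, limma compared both untreated H460 arrays with both untreated HCC95 arrays. TNFAIP3 was higher in H460, at a mean of 8.69 against 6.08 in HCC95, a difference of 2.61 (SE 0.213, adjusted p = 5.31e-07). NFKB1 was also higher, at 10.47 in H460 against 9.07 in HCC95, a difference of 1.40 (SE 0.157, adjusted p = 9.43e-06). Both differences had the same direction with either vector, 2.93 and 1.499 with LZTFL1 and 2.29 and 1.30 with GFP.

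LTB, NFKBIE and RELB were lower in H460, where none was detected, so their folds are bounds from the lowest detected value of each array. They entered the limma fit through the HCC95 arrays alone, so the detection filter itself favoured a lower value in H460. The fit also took their undetected values as measured. Their calls therefore carry no weight, and no p-value is given. LTB was at least 2.54-fold lower in H460, with measured means of 4.49 in H460 and 6.83 in HCC95. This bound averages unlike pairs, at least 1.0865-fold with LZTFL1 and at least 5.94-fold with GFP. NFKBIE was at least 1.61-fold lower, with means of 4.75 in H460 and 6.18 in HCC95. Its bounds were 2.03-fold with LZTFL1 and 1.28-fold with GFP. RELB was at least 1.21-fold lower, with means of 4.74 in H460 and 5.76 in HCC95. Its bounds were 1.06-fold with LZTFL1 and 1.39-fold with GFP. NFKBIA, at −0.21 (adjusted p = 0.196), and NFKB2, at −0.34 (adjusted p = 0.245), were not called. The 5 of 7 members called include LTB, NFKBIE and RELB and stand beside 53.2% of 13803 genes called. The share is not taken as a property of the members.

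The rest of the pathway was read from 7 lists of 105 genes other than the members, 101 of them with a probe. The lists cover ligands, receptors, adaptors, kinases, other REL and IκB genes, target genes, and the genes that flank LTB. In the TGFβ fit, 67 were tested, 9 rose and 1 fell, with a median of 0.15, beside 6.17% of all genes called and a median of 0.00 over all genes. Of the 21 target genes tested, 8 rose and none fell, with a median of 0.43. CCL2 is among the 8, though it entered the fit through the TGFβ-labelled arrays alone. With median scaling 7 of the 21 rose and none fell, with a median of 0.20 where that of all genes was −0.21, and without the variance trend 4 rose. The lists were chosen with earlier results of these data known. The counts and adjusted p-values of list genes, here and below, are therefore not independent evidence of a direction. None of the 6 ligands, 8 kinases, 8 other REL and IκB genes or 6 genes flanking LTB passed the test.

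The target genes that rose with the TGFβ label encode chemokines, cytokines and secreted proteins. CCL20, a chemokine for dendritic cells and lymphocytes, rose by 2.46 (SE 0.184, adjusted p = 5.38e-10), with differences of 2.71 with LZTFL1 and 2.20 with GFP. IL1B, the pro-inflammatory interleukin-1β, rose by 2.38 (SE 0.188, adjusted p = 1.14e-09), and IL1A by 1.49 (adjusted p = 2.42e-06). CXCL8, the neutrophil chemokine interleukin-8, rose by 1.35 (adjusted p = 5.38e-07), and IL6 by 1.31 (adjusted p = 4.00e-07). These cytokine genes and LTB were higher on the same arrays, a description of genes chosen with earlier results known and not a test.

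CCL2, a monocyte chemokine, was higher as well, but entered the fit through the TGFβ-labelled arrays alone, so its call carries no weight. It was not detected without the TGFβ label and is given as at least 1.65 with LZTFL1 and at least 1.69 with GFP. LCN2, the iron-siderophore binding lipocalin, rose by 0.92 (adjusted p = 0.000179). PLAU, the urokinase gene, rose by 0.40 (adjusted p = 0.0431). Of the receptors, LTBR, which binds lymphotoxin heterotrimers that contain lymphotoxin beta, rose by 0.48 (SE 0.132, adjusted p = 0.0260), with log2 values of 10.14 with LZTFL1 and 10.65 with GFP on the TGFβ-labelled arrays, against 9.76 with LZTFL1 and 10.07 with GFP on the untreated arrays. With median scaling neither PLAU, at 0.19 (adjusted p = 0.572), nor LTBR, at 0.26 (adjusted p = 0.448), passed the test. Of the adaptor list, TNFAIP1 fell by 0.44 (adjusted p = 0.0390).

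The kinase and other REL and IκB genes, none of which passed the test, had these TGFβ estimates. IKBKB, a catalytic IκB kinase subunit, was at 0.38 (adjusted p = 0.160), CHUK, the other catalytic subunit, at −0.16 and the scaffold IKBKG at 0.14. RELA, the p65 subunit, was at −0.15, with differences of −0.42 with LZTFL1 and 0.12 with GFP. BCL3, an atypical IκB protein, was at 0.48 (adjusted p = 0.0629), and NFKBIZ, another, at 0.52 (adjusted p = 0.268).

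**Figure D4:**
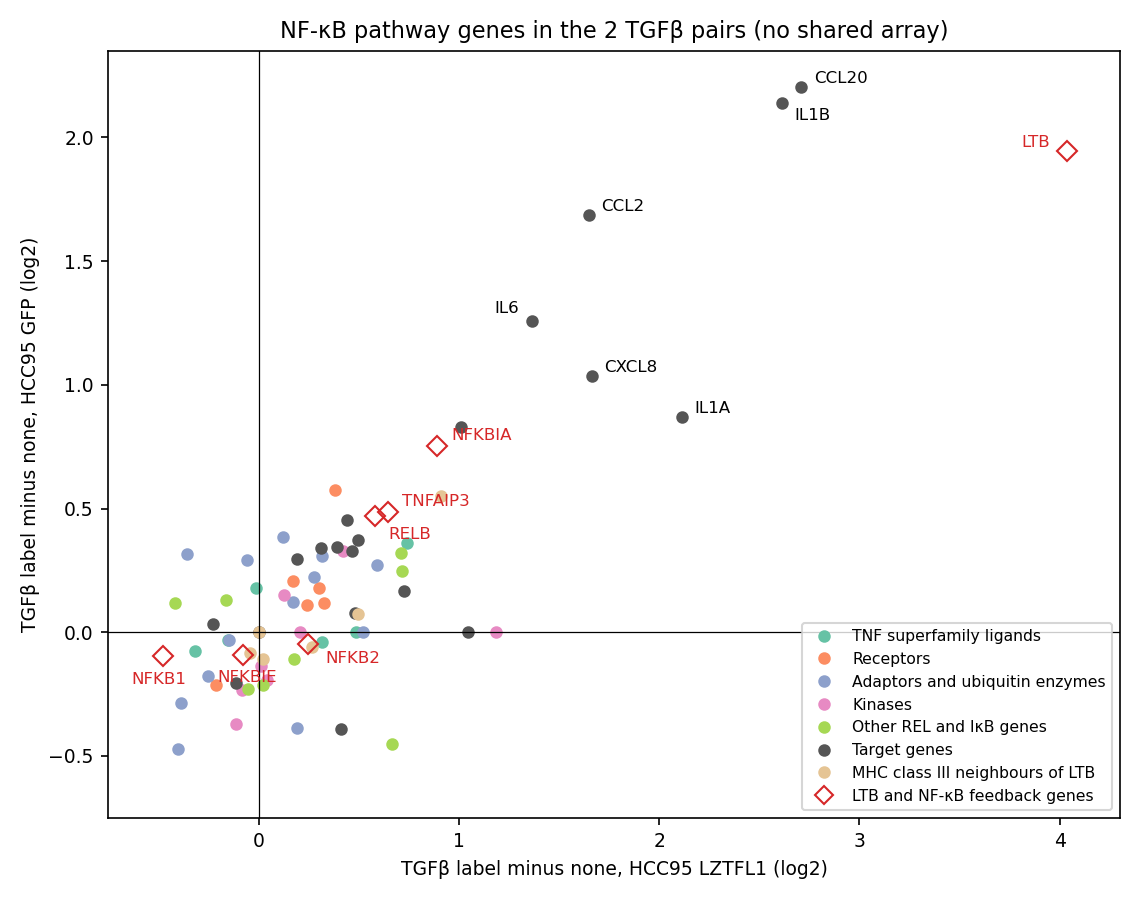
Difference in normalized log2 intensity between the TGFβ-labelled and the untreated array, in HCC95 with LZTFL1 (horizontal) and with GFP (vertical), for genes of the NF-κB lists measured in both pairs; values of genes below detection on 1 array, such as CCL2, are bounds. The pairs share no array. LTB lies at 4.03 and 1.94, next to CCL20 (2.71 and 2.20) and IL1B (2.61 and 2.14), while NFKBIE (−0.08 and −0.09) and NFKB2 (0.25 and −0.05) lie near 0 and NFKB1 lies at −0.48 and −0.10.

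Between the vectors in HCC95, the lists went both ways. The LZTFL1 fit tested 67 of the genes, of which 4 rose and 6 fell, beside 7.63% of all genes called. With median scaling 2 rose and 4 fell, and without the variance trend 1 rose and 1 fell. IL1A fell by 2.13 (SE 0.183, adjusted p = 4.95e-09), IL6 by 0.89 (adjusted p = 0.000171), TNFAIP8 by 0.75 (adjusted p = 0.0123), IL1B by 0.62 (adjusted p = 0.0391) and PLAU by 0.39 (adjusted p = 0.0418). TNFRSF1A, the main TNF receptor, fell by 0.74 (adjusted p = 0.000603). LCN2 rose by 1.12 (adjusted p = 1.23e-05), IRF1 by 0.68 (adjusted p = 0.0336), TNFRSF12A by 0.58 (adjusted p = 0.0173) and IER3 by 0.50 (adjusted p = 0.00307).

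IL1A and LCN2 were the list genes past 2-fold between the vectors both with and without the TGFβ label. IL1A differed by −1.51 with LZTFL1 against GFP on the TGFβ-labelled arrays and by −2.75 on the untreated arrays. LCN2 was 1.21 higher with LZTFL1 on the TGFβ-labelled arrays and 1.03 higher on the untreated arrays. LTB shared with IL1A the smaller vector difference on the TGFβ-labelled arrays. This was not particular to them: IL1B was at −0.39 there and −0.86 untreated, while TNFAIP8 went the other way, at −0.88 and −0.62. CCL20 and CXCL8, high with the TGFβ label as LTB was, had vector differences of −0.03 and −0.06 in untreated HCC95. On the TGFβ-labelled arrays these were 0.47 and 0.57, opposite in sign to that of LTB.

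None of the genes that flank LTB on chromosome 6 passed the test for the TGFβ label. NFKBIL1 differed by 0.91 with LZTFL1 and 0.55 with GFP between the TGFβ-labelled and untreated arrays (estimate 0.73, limma adjusted p = 0.0947). BAG6 was at 0.50 and 0.07, PRRC2A at 0.27 and −0.06, and CSNK2B at −0.04 and −0.08. LTA, which encodes the partner of lymphotoxin beta in the membrane heterotrimer, was not detected on any HCC95 array. In the comparison of the lines, 5 of 7 flanking genes tested were called lower in H460 and 0 higher. Over all 13803 genes 3877 were called lower and 3468 higher. ATP6V1G2 and NFKBIL1, among the 5, were not detected in H460 and entered the fit through the HCC95 arrays alone. Their bounds were only 1.098-fold and 1.002-fold.

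CD70, a ligand of the same family, differed most between the lines among the listed ligands. It read 10.17 with LZTFL1 and 10.29 with GFP in H460, against 5.70 with LZTFL1 and 5.54 with GFP in HCC95, a difference of 4.61 in the limma fit (adjusted p = 7.57e-10). TNFSF10, the death ligand TRAIL, was at least 5.31-fold lower in H460, where it was not detected. It entered the fit through the HCC95 arrays alone, so its call carries no weight. CXCL8 was higher in H460 by 3.09 (adjusted p = 3.29e-09), and TNFRSF12A lower, at −2.25 (adjusted p = 7.61e-07).

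The genes whose log2 values most resembled those of LTB across the 6 arrays were CDK11A, IL36G, MSMB, ALOX12B and IL1RN, with Pearson's r between 0.9855 and 0.9941 among 3226 candidates. The arrays fall apart by line, so r is given as a description. LTB, RELB and NFKBIE were not detected in H460. MSMB, ALOX12B and IL1RN were detected neither there nor in untreated HCC95 with LZTFL1. Values at background thus enter r. IL36G, an interleukin-1 family cytokine of squamous epithelia, read 7.99 with LZTFL1 and 8.50 with GFP on the TGFβ-labelled arrays, and 5.74 with LZTFL1 and 7.32 with GFP on the untreated arrays. It was not detected in H460. CDK11A, a cyclin-dependent kinase whose near-identical copy CDK11B may share its signal, had the highest r but spanned only 5.64 to 6.88. Of the members, r with LTB was 0.953 for RELB, 0.903 for NFKBIA, 0.826 for NFKB2, 0.641 for NFKBIE, 0.333 for TNF, which was not detected, −0.561 for TNFAIP3 and −0.824 for NFKB1.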

How the data were processed

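Whole-transcriptome mRNA was measured on 6 Illumina HumanHT-12 v4 arrays, 1 per group. The authors deposited non-normalized signal intensity and a detection p-value per probe, read with GenomeStudio 2011.1 per the submitters' processing notes with settings that were not stated there. Detection p-values, as deposited, move by 1 in 770. The authors also deposited a processed intensity table, on a linear scale with its method unstated, whose columns share 1 distribution.

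Signals were corrected by normexp with negative controls inferred from the detection p-values, given an offset of 16, quantile normalized and taken to log2 (neqc, limma 3.58.1, R 4.3.3). A symbol was listed for 30113 probes, several for 8 and none for 17202. A gene was represented by its brightest probe and entered a pair when detected (p under 0.01) on at least 1 array. In the pairs, an undetected value was raised to the lowest detected value of its array, which makes the difference a bound. The fits took undetected values as measured. With 1 array per group the 7 pairs have no test, and past 2-fold means a log2 difference of at least 1. Their differences were set beside the SD of differences between probes of the same gene.

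Additive limma fits (eBayes with trend, Benjamini-Hochberg adjusted p under 0.05, restricted to genes with detection on 2 or more of the 4 arrays) tested the TGFβ label, the vector in HCC95 and the line in untreated cells. With 1 array per group, the 1 residual degree of freedom of each fit holds the departure of its terms from adding up. It is not a spread between repeat arrays, and eBayes draws much of each SE from other genes. The p-values therefore do not measure variation between repeat cultures or repeat arrays. On simulated data of 12735 genes the TGFβ fit called 93 of 100 genes changed by 1 log2 unit, 100 of 100 changed by 2, and 10 unchanged genes. Those data were drawn from the variances of the fit itself, with independent normal errors, no vector effect and no departure from additivity. High recovery was thus built in and says nothing of the p-values on the real arrays. Alternatives were another scaling, offset, detection limit, probe rule, filter and variance model, and the processed intensities.

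The members and all lists were chosen with earlier results of these data known. All members were named. Of each list, up to 4 genes detected on all HCC95 arrays with the largest mean TGFβ difference were named, with any gene past 2-fold in both TGFβ or both vector pairs. Other list genes named in the text are those called in a fit and LTA, chosen after their values were seen. The 5 genes most like LTB had the highest Pearson's r among genes detected on at least 3 arrays with an SD of at least 0.5.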

Additional observations from a re-analysis of the deposited data

How the results depend on the processing

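All 4 HCC95 comparisons rest on 4 arrays, so any fault of 1 array enters several of them, and values near background depend on the correction. With a 1.5-fold threshold the members past it were 3 for the TGFβ label with LZTFL1 and 2 with GFP, and for the vector 1 on the TGFβ-labelled arrays and 4 in untreated HCC95; with undetected values as measured, 5 members passed 2-fold in H460 against HCC95 with GFP. The list genes past 2-fold for the TGFβ label with GFP were 3 with median scaling and 3 without background correction, against 5. They were 5 with LZTFL1 without background correction, against 9. For the vector they were 1 in untreated HCC95 without background correction and 1 with an offset of 50, against 2, and 5 on the TGFβ-labelled arrays at a detection limit of 0.05, against 2. The TGFβ fit called 786 genes, 447 without background correction, 258 with probe means and 55 without the variance trend. The LZTFL1 fit called 972, and 400 with median scaling, 522 without background correction, 307 with probe means and 86 without the trend. Median scaling moved the median of all genes to −0.21 in the TGFβ fit and −0.19 in the line fit, and the splits into higher and lower to 121 and 746 (against 435 and 351), 110 and 290 (against 476 and 496) and 2351 and 4262 (against 3468 and 3877). The excess of the LTB TGFβ difference with LZTFL1 over that with GFP was 0.878 without background correction and 1.47 with an offset of 50, against 2.09. Why these values moved was not tested. Of 336 member differences under alternatives 4 changed sign, none of them 0.5 or more in size. No analysis paired by replicate was possible, because each group had 1 array and no label speaks of repeat cultures. The fits given hold the vector or the TGFβ label as a term.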

Other observations

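Some markers of other cell types, named after their values were seen, differed between the labels or the lines. VWF, the endothelial von Willebrand factor gene, read 7.41 with LZTFL1 and 7.14 with GFP on the TGFβ-labelled HCC95 arrays, and 5.59 with LZTFL1 and 5.76 with GFP on the untreated arrays. The other 2 endothelial markers, PECAM1 and CDH5, were not detected on any array. CD68, a lysosomal macrophage marker, was 1.16 higher with the TGFβ label in cells with LZTFL1 and 0.45 higher with GFP. CD14 was detected in H460 only, where LTB was not, at 9.64 with LZTFL1 and 9.50 with GFP. The other myeloid markers, LYZ, CSF1R and ITGAM, were not detected on any array. Of the fibroblast markers, COL1A1 and COL1A2 were detected on the untreated HCC95 arrays only, and COL3A1, DCN and LUM on none. The part of these differences in the results above was not tested.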
